A study of Mus musculus with 4 samples.

Results

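Natural killer (NK) cells of the mouse liver were followed through concanavalin A (ConA) hepatitis. They are defined here as cells chosen by their measured UMIs (unique molecular identifiers, each counting 1 captured RNA molecule). A cell was taken when it held no UMI of *Cd3d* or *Cd3e*, at most 2 UMIs of *Cd79a*, *Cd79b* and *Ms4a1* together, at most 10% of its UMIs from mitochondrial genes, and a UMI of at least 2 of the 8 genes *Ncr1*, *Klrb1c*, *Klre1*, *Klra4*, *Klra8*, *Klra9*, *Eomes* and *Prf1*. This rule found 761 of 9300 cells. Liver mononuclear cells of C57BL/6 mice aged 8 to 10 weeks had been sequenced as single cells captured in droplets, and each of the 4 groups is 1 library. Naïve mice received no ConA. The ConA+Veh, the ConA+TCDD and the ConA+FICZ mice received ConA and then vehicle, TCDD or FICZ, and their cells were taken 24 hours after ConA. The vehicle, corn oil, or TCDD was given 1 hour after ConA. The number of mice behind a library and the dose and time of FICZ are not given in the sources used here. Since each group has 1 library, no test between groups was possible, no p-value is given, and every interval below covers counting error only. Both ligand libraries were compared with the same ConA+Veh library, so the comparisons are not independent of each other.

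NK cells are innate lymphocytes that kill target cells by releasing perforin and granzymes and that secrete interferon gamma and chemokines. Activating receptors such as NKp46 (*Ncr1*) and NK1.1 (*Klrb1c*), and Ly49 receptors of the *Klra* family that read MHC class I, set their activity. The liver also holds type 1 innate lymphoid cells (ILC1), resident relatives that share many of these genes but carry *Cxcr6* and *Tnfsf10* in place of *Eomes*. ConA is a plant lectin that activates T cells and causes hepatitis. TCDD, a dioxin, and FICZ, a photoproduct of tryptophan, are ligands of the aryl hydrocarbon receptor (AhR), a transcription factor that a ligand switches on.

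The rule took 138 of 2086 cells in Naïve, 232 of 2779 in ConA+Veh, 200 of 1880 in ConA+TCDD and 191 of 2555 in ConA+FICZ. These are 6.62%, 8.35%, 10.6% and 7.48% of the cells, with exact 95% binomial intervals of 5.59 to 7.77%, 7.35 to 9.44%, 9.28 to 12.1% and 6.49 to 8.56%. The order of the shares moved with depth. When every cell was first thinned to 1000 UMIs, the shares were 4.95%, 8.1%, 7.65% and 6.65%, so that the ConA+TCDD share lay below that of ConA+Veh and not above it. The Naïve share was the lowest in both versions. The paper's NK cell cluster, a different selection of cells, instead had its highest share in Naïve. The reason for the different order was not tested. A share is relative: it also moves when other cells enter or leave the liver.

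**Figure D1:**
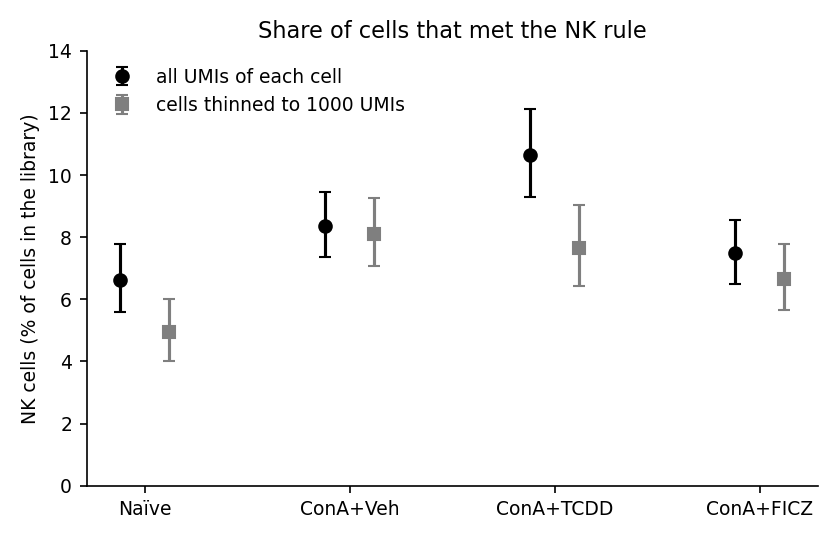
The share of each library's cells that met the NK rule, in percent, with exact 95% binomial intervals; circles use all UMIs of each cell and squares use cells thinned to 1000 UMIs. The ConA+TCDD library is highest with all UMIs, at 10.6%, and lies within the interval of ConA+Veh after thinning.

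The libraries held 5952445, 19252211, 12077209 and 16017797 UMIs in all. Here and below, 4 values without names follow the order Naïve, vehicle, TCDD, FICZ. The NK cells held 281425, 801113, 656796 and 575102 of them in the same order. By medians, an NK cell had 1576.5, 2543, 2449 and 2168 UMIs and 888, 1146.5, 1066 and 1035 genes, so Naïve cells were the shallowest. Mitochondrial genes gave a median 4.52%, 2.14%, 2.34% and 2.73% of UMIs. Levels are therefore given as CPM, the UMIs of a gene per 1000000 UMIs of the NK cells of 1 library, and as log2 ratios of CPM between 2 libraries. They compare 1 gene between libraries and are not scaled by gene length. Pairs of libraries shared 4 to 15 cell barcodes, and 1 barcode belonged to an NK cell in both Naïve and ConA+Veh.

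The NK identity of the cells was visible in genes that the rule did not use. A UMI of *Gzma*, at 1000 UMIs per cell, was found in 83.8%, 95.3%, 96.7% and 98.8% of NK cells, against 1.23%, 9.97%, 11.6% and 7.88% of cells with 2 or more UMIs of *Cd3d* and *Cd3e* thinned in the same way, hereafter Cd3 cells. *Tyrobp*, the adaptor of activating NK receptors, stood at 3159 CPM in Naïve, 3097 in ConA+Veh, 2296 in ConA+TCDD and 2874 in ConA+FICZ. *Fcer1g*, the adaptor of NKp46 and CD16, stood at 2739.6 CPM in Naïve, 3877 in ConA+Veh, 3602 in ConA+TCDD and 3808 in ConA+FICZ. The 8 rule genes are a description of the choice: *Ncr1* was at 608 CPM in Naïve, 352 in ConA+Veh, 273 in ConA+TCDD and 356 in ConA+FICZ, and *Klrb1c* at 899 CPM in Naïve, 489 in ConA+Veh, 391 in ConA+TCDD and 569 in ConA+FICZ. Among the rule genes, *Klre1*, *Klra4*, *Klra8*, *Klra9* and *Eomes* lay between 139 and 643 CPM. *Klra* genes are near-identical copies, so their single counts are uncertain.

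At the edge of the rule, 135 cells held exactly 2 of the 8 genes, 150 held 3 and 17 held all 8. In Naïve, *Trac*, the constant chain of the T cell receptor, stood at 184 CPM in cells just inside the rule with 2 genes, 218 CPM in cells just outside it with 1 gene, and 37 CPM in cells with 3 or more. In ConA+Veh the same groups held 0, 11 and 9.35 CPM of *Trac*. *Gzma* in ConA+Veh was 1644 CPM just outside, 14102 CPM just inside and 21168 CPM with 3 or more genes.

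Other cell types left few UMIs. The 14 T cell markers summed to 881, 377, 422 and 381 CPM. *Trbc1* was the most abundant of them, *Cd4* was at 0 in all 4 libraries, and the chain gene *Trac* had 16, 7, 11 and 11 UMIs. The 11 B cell markers summed to 1009, 213, 158 and 115 CPM, with *Ebf1* at 0 in all 4 libraries. *Cd74* led them, and 1 Naïve cell held 114 of the 126 *Cd74* UMIs together with 24 UMIs of *Siglech* and 52 of *Ly6d*, genes of plasmacytoid dendritic cells. The 8 neutrophil markers summed to 35.5, 377, 1140.4 and 93.9 CPM. 1 ConA+Veh cell held 142 of 151 *S100a9* UMIs, and 1 ConA+TCDD cell held 297 of 302 *S100a8*, 275 of 290 *S100a9* and all 107 *Retnlg* UMIs. The 10 myeloid markers summed to 298, 197, 158 and 183 CPM, led by *Cst3*, with *Adgre1*, *C1qc* and *Clec4f* at 0 in all 4 libraries. The 6 plasmacytoid markers summed to 1237, 1569, 1386 and 1438 CPM, mostly *Irf8*, which NK cells express too, and the 7 erythroid markers to 171, 235, 298 and 179 CPM, mostly *Car2*. The 12 hepatocyte markers summed to 142, 78.6, 7.61 and 376 CPM, with *Mup20* at 0 throughout. Their most abundant gene, *Saa2*, had 0, 12, 0 and 66 UMIs, and *Alb* had 8, 15, 2 and 41. The 7 endothelial markers summed to 92.4, 49.9, 44.2 and 93.9 CPM, led by *Pecam1*, with *Clec4g* and *Ptprb* at 0. *Xist* was read in all 4 libraries, and the 4 Y-linked genes were at 0 in each. *Trac*, *Alb* and the genes at 0 were chosen after their values were seen. The part of these cells and of free RNA in the results below was not tested, except where a value without a single cell is given.

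ConA+Veh differed from Naïve in more genes than the ligand libraries from ConA+Veh. Of 1526 genes with at least 100 UMIs in Naïve and ConA+Veh together, 127 (8.32%) were higher by 2-fold or more in ConA+Veh and 93 (6.09%) were lower, with a median log2 ratio of 0.14 over all of them. Granzymes, cell cycle genes, interferon-stimulated genes and folding enzymes of the endoplasmic reticulum (ER) were among the higher genes. Chemokines, immediate early genes and several receptors were among the lower ones. For ConA+TCDD over ConA+Veh, 8 of 1938 genes (0.413%) were higher and 3 (0.155%) lower by 2-fold, with a median of -0.06. For ConA+FICZ over ConA+Veh, 6 of 1857 (0.323%) were higher and 13 (0.700%) lower, with a median of -0.03. The counts for the ligands rest partly on the single cells above: the 8 genes higher in ConA+TCDD are *S100a8*, *Ccl3*, *Ctla2a*, *S100a9*, *Plscr1*, *Retnlg*, *Cblb* and *Hist1h1c*, of which *S100a8*, *S100a9* and *Retnlg* came almost wholly from 1 cell. *Hist1h1c*, a linker histone, *Plscr1* and *Cblb* stand close to the line, and *Hist1h1c* fell short of it, at a log2 ratio of 0.92, in NK cells with 3 or more rule genes. Below, a list's number of genes past 2-fold is followed by its range over other choices of cells and of scaling where that range is wide, leaving out the mean UMI per cell, which has no depth correction. The same genes are counted in each choice.

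**Figure D2:**
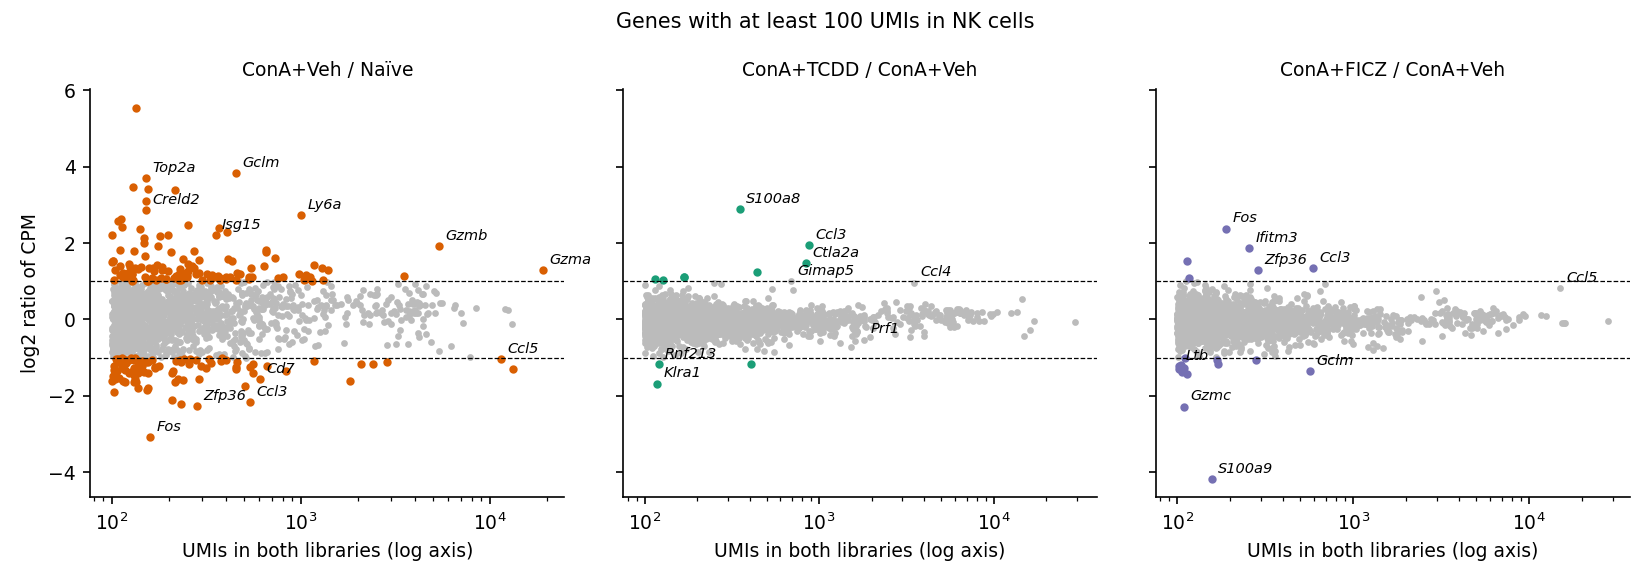
The log2 ratio of CPM against the UMIs in both libraries (log axis) for the genes with at least 100 UMIs in NK cells, in 3 comparisons; coloured points passed 2-fold (dashed lines) and a few genes are labelled. The ConA+Veh over Naïve panel has 220 coloured points, and the ligand panels have 11 and 19.

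*Gzma* and *Gzmb* were higher in all 3 ConA libraries than in Naïve. *Gzma*, a granzyme that kills target cells (build GRCm38, chr13:113093825-113100981, minus strand), stood at 8461 CPM in Naïve, 20709 in ConA+Veh, 19641 in ConA+TCDD and 20275 in ConA+FICZ. The 95% intervals were 8124 to 8807 CPM in Naïve and 20395 to 21026 CPM in ConA+Veh. The log2 ratio of ConA+Veh over Naïve was 1.29 (95% counting interval 1.23 to 1.35), a 2.45-fold difference, and those of ConA+TCDD and ConA+FICZ over ConA+Veh were -0.08 and -0.03. *Gzmb* (chr14:56258838-56262260, minus strand), which starts apoptosis in the target, stood at 1635 CPM in Naïve, 6163 in ConA+Veh, 5959 in ConA+TCDD and 5542 in ConA+FICZ. It was thus 3.77-fold higher in ConA+Veh than in Naïve, and the ConA libraries were close to each other. A *Gzmb* UMI was found in 56.8%, 80.1%, 86.7% and 82.3% of NK cells at 1000 UMIs, and in 0.197%, 3.64%, 1.71% and 1.15% of cells with 3 or more UMIs of *Cd79a*, *Cd79b* and *Ms4a1*, which should lack it.

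*Prf1*, the pore-forming perforin and one of the rule genes, is given as a description: 736 CPM in Naïve, 1448 in ConA+Veh, 1005 in ConA+TCDD and 1087 in ConA+FICZ. *Gzmc*, a further granzyme, was at 53.3 CPM in Naïve, 119 in ConA+Veh, 85.3 in ConA+TCDD and 24.3 in ConA+FICZ, with 46 of the 95 ConA+Veh UMIs in 1 cell, and a log2 ratio of ConA+Veh over Naïve of 0.78 without the top cells. Of the 21 granule genes, 11 reached 100 UMIs against Naïve, 6 were higher by 2-fold, beside 8.32% of all genes, and none lower, and the median log2 ratio was 1.12 beside 0.14 for all genes. The other members past 2-fold included *Cst7*, an inhibitor of granule proteases (log2 ratio 1.12), and *Serpinb6b*, a serpin (1.39). Against ConA+Veh the list medians were -0.17 in ConA+TCDD and -0.22 in ConA+FICZ, with only *Gzmc* past 2-fold, lower in ConA+FICZ, beside 0.700% of all genes.

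**Figure D3:**
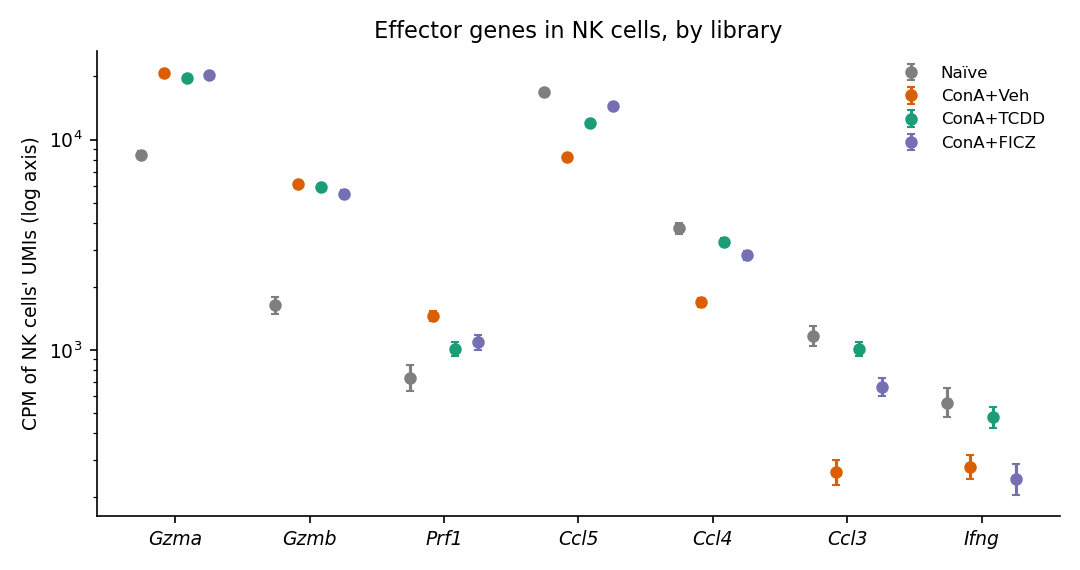
CPM (log axis) of granzymes, perforin, chemokines and interferon gamma in NK cells of the 4 libraries, with exact 95% Poisson intervals. *Gzma*, *Gzmb* and *Prf1* are lowest in Naïve, and *Ccl3*, *Ccl4* and *Ccl5* are lowest in ConA+Veh.

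The chemokines went the other way. *Ccl3*, which draws monocytes and T cells (chr11:83647844-83649355, minus strand), stood at 1169 CPM in Naïve, 261 in ConA+Veh, 1011 in ConA+TCDD and 666 in ConA+FICZ. ConA+Veh was the lowest of the 4 libraries. The log2 ratio was -2.16 (95% counting interval -2.42 to -1.91) for ConA+Veh over Naïve, 1.95 (95% counting interval 1.73 to 2.19) in ConA+TCDD against ConA+Veh and 1.35 (95% counting interval 1.11 to 1.60) in ConA+FICZ against ConA+Veh. A *Ccl3* UMI was found in 43.2%, 15.2%, 25.6% and 24.4% of NK cells at 1000 UMIs, and in 0.591%, 0.455%, 0% and 0.287% of the cells with B cell genes. 1 ConA+TCDD cell held 141 of its 664 UMIs, and with the top cell of each library left out the ConA+TCDD log2 ratio was 1.94. With cells weighted equally, the ConA+FICZ log2 ratio was 0.93, short of 2-fold.

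*Ccl4* (chr11:83662584-83664683, plus strand) lies beside *Ccl3* and also draws leukocytes. It stood at 3795 CPM in Naïve, 1680.2 in ConA+Veh, 3272 in ConA+TCDD and 2812 in ConA+FICZ. *Ccl5* (chr11:83525778-83530518, minus strand), a chemokine of T and NK cells, stood at 16885.5 CPM in Naïve, 8265 in ConA+Veh, 11944 in ConA+TCDD and 14509 in ConA+FICZ. These 3 chemokines were lowest in ConA+Veh, with both ligand libraries between ConA+Veh and Naïve. *Xcl1*, which draws dendritic cells, was lowest in ConA+FICZ instead, at 917 CPM in Naïve, 503 in ConA+Veh, 554 in ConA+TCDD and 327 in ConA+FICZ. Without NK cells above 2 times the median UMIs, the log2 ratio of *Ccl5* in ConA+Veh over Naïve was -0.61, short of 2-fold, and with cells weighted equally that of *Ccl4* was -0.83. In Cd3 cells the log2 ratios of ConA+TCDD over ConA+Veh were -2.13 for *Ccl3*, -0.32 for *Ccl4* and -0.21 for *Ccl5*, and the difference from NK cells was not tested.

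*Ifng*, the cytokine interferon gamma (chr10:118441046-118445892, plus strand), stood at 561 CPM in Naïve, 277 in ConA+Veh, 478 in ConA+TCDD and 243 in ConA+FICZ. Naïve and ConA+TCDD were the high libraries. ConA+TCDD over ConA+Veh gave a log2 ratio of 0.79 (95% counting interval 0.53 to 1.04), short of 2-fold, and that of ConA+FICZ was -0.19 (95% counting interval -0.50 to 0.12). A single Naïve cell held 47 of the 158 *Ifng* UMIs, and without the top cells the log2 ratio of ConA+Veh over Naïve was -0.67 in place of -1.02. Of the 16 cytokine and chemokine genes, 7 reached 100 UMIs in ConA+Veh and Naïve, of which 5 were lower by 2-fold, beside 6.09% of all genes, and none higher, at a list median of -1.03 beside 0.14. The number lower was 1 to 6 over the other choices, and 1 both with cells weighted equally and without NK cells above 2 times the median UMIs. With the ligands only *Ccl3* was higher by 2-fold, beside 0.413% of all genes in ConA+TCDD and 0.323% in ConA+FICZ, and *Ltb* was lower in ConA+FICZ. The medians were 0.53 in ConA+TCDD, beside -0.06 for all genes, and 0.24 in ConA+FICZ, beside -0.03. *Fasl*, the ligand of the death receptor Fas, was at 338 CPM in Naïve, 175 in ConA+Veh, 166 in ConA+TCDD and 158 in ConA+FICZ.

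Immediate early genes, which cells switch on within minutes of a stimulus, were mostly high in Naïve. *Fos* was at 423 CPM in Naïve, 49.9 in ConA+Veh, 47.2 in ConA+TCDD and 259 in ConA+FICZ, and *Zfp36*, which destroys cytokine mRNA, was at 629 CPM in Naïve, 131 in ConA+Veh, 145 in ConA+TCDD and 319.9 in ConA+FICZ. In both genes Naïve and ConA+FICZ stood above ConA+Veh and ConA+TCDD. ConA+FICZ over ConA+Veh gave a log2 ratio of 2.38 (95% counting interval 1.86 to 2.92) for *Fos* and 1.29 (95% counting interval 0.93 to 1.65) for *Zfp36*. *Junb* was at 3279.7 CPM in Naïve, 1450.5 in ConA+Veh, 1696 in ConA+TCDD and 2184 in ConA+FICZ, and *Rgs1*, a brake on chemokine receptors, at 1784 CPM in Naïve, 838 in ConA+Veh, 971 in ConA+TCDD and 835 in ConA+FICZ. Of the *Rgs1* UMIs of Naïve, 275 of 502 lay in the 24 cells with 3 or more ILC1 genes, and without such cells the levels were 1071 CPM in Naïve and 764 CPM in ConA+Veh, short of 2-fold. *Nr4a1*, induced by receptor signalling, was at 352 CPM in Naïve, 309.6 in ConA+Veh, 219 in ConA+TCDD and 172 in ConA+FICZ. Of the 22 genes on the list, 18 reached 100 UMIs in each comparison. 9 were lower by 2-fold in ConA+Veh than in Naïve, beside 6.09% of all genes, none passed 2-fold in ConA+TCDD and 2 were higher in ConA+FICZ, beside 0.323% of all genes. The list medians were -0.82, 0.11 and 0.22 in these comparisons, and those of all genes 0.14, -0.06 and -0.03. In cells with *Cd52* the number higher was 2 in ConA+TCDD and 5 in ConA+FICZ, with no share of all genes given for those cells. These numbers can rest on few UMIs, such as 44 in ConA+FICZ and 9 in ConA+Veh for *Fos*. In cells with B cell genes a *Fos* UMI was found in 38.1%, 4.7%, 3.42% and 13%, against 24.3%, 2.37%, 3.89% and 18.9% of NK cells, with Naïve and ConA+FICZ the high libraries in both.

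Receptors lay on both sides of Naïve after ConA. Of the 14 activating receptor genes, 8 reached 100 UMIs in ConA+Veh and Naïve, and the median log2 ratio was -0.85 beside 0.14 for all genes, with 7 below Naïve and 2 of them lower by 2-fold, beside 6.09% of all genes. *Klrk1*, which encodes NKG2D, was at 650.3 CPM in Naïve, 418 in ConA+Veh, 387 in ConA+TCDD and 581 in ConA+FICZ, and *Klrc2*, which encodes NKG2C, at 249 CPM in Naïve, 79.9 in ConA+Veh, 77.6 in ConA+TCDD and 104 in ConA+FICZ. *Klrc1*, which encodes the inhibitory NKG2A, was at 345 CPM in Naïve, 164 in ConA+Veh, 190.3 in ConA+TCDD and 106 in ConA+FICZ. *Ctla4*, a checkpoint receptor, was at 14.2 CPM in Naïve, 156 in ConA+Veh, 134 in ConA+TCDD and 74.8 in ConA+FICZ, from 4 UMIs in Naïve and 125 in ConA+Veh. *Tigit*, another checkpoint receptor, was at 110.2 CPM in Naïve, 291 in ConA+Veh, 359 in ConA+TCDD and 304 in ConA+FICZ. The inhibitory receptor list had a median of 0.06, with 2 genes higher and 2 lower by 2-fold among 8, beside 8.32% and 6.09% of all genes. These were 2 to 3 and 0 to 2 over the other choices, and the log2 ratio of *Klrc1* was -0.77 with cells weighted equally.

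Among the adaptors, *Hcst*, which links NKG2D to its kinases, was at 874 CPM in Naïve, 389 in ConA+Veh, 379 in ConA+TCDD and 479.9 in ConA+FICZ. *Il18rap*, a chain of the interleukin 18 receptor, was at 302 CPM in Naïve, 87.4 in ConA+Veh, 146 in ConA+TCDD and 151 in ConA+FICZ. *Il2rb*, a chain of the interleukin 2 and 15 receptors, was at 1393 CPM in Naïve, 1252 in ConA+Veh, 1213 in ConA+TCDD and 1116 in ConA+FICZ. *Stat4*, which carries interleukin 12 signals, was at 267 CPM in Naïve, 134 in ConA+Veh, 155 in ConA+TCDD and 170.4 in ConA+FICZ, and *Tbx21*, the T-bet factor of NK cells, at 181 CPM in Naïve, 81.1 in ConA+Veh, 100.5 in ConA+TCDD and 117 in ConA+FICZ. *Id2*, which NK cells need to develop, was at 760.4 CPM in Naïve, 997 in ConA+Veh, 1121 in ConA+TCDD and 1090.2 in ConA+FICZ. *Irf8*, a factor of NK and dendritic cells, was at 842 CPM in Naïve, 1169.6 in ConA+Veh, 1101 in ConA+TCDD and 1062 in ConA+FICZ.

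*Klra1* and *Rnf213* were lower by 2-fold in ConA+TCDD. *Klra1*, a Ly49 receptor, stood at 60.4 CPM in Naïve, 117 in ConA+Veh, 36.5 in ConA+TCDD and 97.4 in ConA+FICZ, from 17, 94, 24 and 56 UMIs, and its log2 ratio of ConA+TCDD over ConA+Veh was -1.68 (95% counting interval -2.39 to -1.02). *Rnf213*, an interferon-stimulated ubiquitin ligase, was at 92.4 CPM in Naïve, 109.8 in ConA+Veh, 48.7 in ConA+TCDD and 129 in ConA+FICZ, with a ratio of -1.17 (95% counting interval -1.80 to -0.57), and of -0.53 in cells with *Cd52*.

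The 16 conventional NK genes, which include the rule genes *Eomes*, *Klra4*, *Klra8* and *Klra9*, held members on both sides. 11 reached 100 UMIs in ConA+Veh and Naïve, 7 above and 4 below Naïve, with 2 higher and 2 lower by 2-fold, beside 8.32% and 6.09% of all genes, at a median of 0.24 beside 0.14. The numbers were 1 to 3 and 1 to 2 over the other choices. For ConA+TCDD over ConA+Veh, 10 of 11 lay below 0 and 2 were lower by 2-fold, beside 0.155% of all genes, at a median of -0.30 beside -0.06. All 8 rule genes lay below 0 in that comparison, so the list's number and median are partly a description of the choice. In cells with *Cd52* that median was 0.14, above 0, beside -0.02 for all genes. There 1 was lower by 2-fold, with no share of all genes given for those cells. For ConA+FICZ, 7 of 10 lay below 0, none by 2-fold. Their summed level was 12319, 23975, 22383 and 23345 CPM, most of it *Gzma*. Of the 2 members higher by 2-fold, *Gzma* is given above and *Emb*, embigin, was at a log2 ratio of 1.11. The ratio of *Emb* was 0.90 without NK cells above 2 times the median UMIs. *Irf8*, also given above, is a further member above Naïve. By contrast, 3 members under 100 UMIs, all lower in ConA+Veh than in Naïve, are given as values that were chosen after they were seen. *Zeb2*, which drives the last step of NK maturation, was at 249 CPM in Naïve, 32.5 in ConA+Veh, 35 in ConA+TCDD and 60.9 in ConA+FICZ, and a *Zeb2* UMI was found in 18.9%, 3.32%, 2.78% and 9.15% of NK cells at 1000 UMIs. *S1pr5*, which lets mature NK cells leave tissue, was at 99.5 CPM in Naïve, 16.2 in ConA+Veh, 10.7 in ConA+TCDD and 20.9 in ConA+FICZ, from 28, 13, 7 and 12 UMIs. *Cma1*, a chymase, was at 188 CPM in Naïve, 27.5 in ConA+Veh, 35 in ConA+TCDD and 27.8 in ConA+FICZ. *Itga4*, an integrin of homing cells that reached 100 UMIs, was at 434 CPM in Naïve, 145 in ConA+Veh, 139 in ConA+TCDD and 132 in ConA+FICZ. *Ly6c2*, a surface protein of mature NK cells, was at 746 CPM in Naïve, 305 in ConA+Veh, 356 in ConA+TCDD and 348 in ConA+FICZ, with a log2 ratio of ConA+Veh over Naïve of -0.85 with cells weighted equally.

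Cells with several ILC1 genes were most frequent in Naïve. A list of 13 ILC1 genes was scored as a range and not as a type. 24 of 138, 13 of 232, 15 of 200 and 5 of 191 NK cells held a UMI of 3 or more of them. These are 17.4%, 5.6%, 7.5% and 2.62%, with exact 95% intervals of 11.5 to 24.8% in Naïve and 3.02 to 9.39% in ConA+Veh. Near the limit, 11, 10, 7 and 10 cells held exactly 2 and 10, 6, 8 and 3 held exactly 3. At 1000 UMIs per cell the numbers were 9 of 111, 6 of 211, 2 of 180 and 0 of 164, where 3 counts in place of 0 of 164 would be a share of 1.83% and the exact 95% interval reaches 2.22%.

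*Eomes* is a rule gene and is given as a description only: in Naïve, 1 of the 24 cells with 3 or more ILC1 genes held a UMI of it, and 38 of the other 114. RNA of T cells was also higher in the 24 cells, since *Cd3g*, a chain of the T cell receptor complex, had 28 of its 30 Naïve UMIs there (403 against 9.44 CPM), and *Trac* was at 101 against 42.5 CPM. Its part in the ILC1 counts was not tested. *Gzma* was at 5249.5 CPM in the 24 cells and 9514 CPM in the others. *Cd7*, a surface protein of early lymphocytes that is not on the list, was at 2862 CPM in the 24 cells and 524 CPM in the others. *Ccl5* was at 10326.5 and 19038 CPM. In such cells *Gzma* was also lower in ConA+Veh, at 6465 against 21946 CPM, and in ConA+TCDD, at 11136 against 21000 CPM. ConA+FICZ, with 5 such cells, went the other way. *Gzma* was at 22304 against 20152 CPM there and *Ccl5* at 18571 against 14264 CPM, and 3 of the 5 held an *Eomes* UMI. Over all NK cells, *Cxcr6*, the receptor that holds lymphocytes in the liver, had 26, 23, 33 and 6 UMIs, or 92.4, 28.7, 50.2 and 10.4 CPM. *Ltb*, lymphotoxin beta, was at 217 CPM in Naïve, 97.4 in ConA+Veh, 50.2 in ConA+TCDD and 41.7 in ConA+FICZ. Without the cells with 3 or more ILC1 genes its log2 ratios were -0.59 for ConA+Veh over Naïve and -0.77 for ConA+FICZ over ConA+Veh, both short of 2-fold. T cells also express *Cxcr6*, *Ltb*, *Il7r* and *Tcf7*.

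Cell cycle genes were lowest in Naïve. *Mki67*, a marker of dividing cells, stood at 21.3 CPM in Naïve, 127 in ConA+Veh, 152 in ConA+TCDD and 81.7 in ConA+FICZ, from 6, 102, 100 and 47 UMIs, and *Top2a*, which untangles replicated DNA, at 14.2 CPM in Naïve, 185 in ConA+Veh, 212 in ConA+TCDD and 115 in ConA+FICZ. Naïve was the lowest library and ConA+FICZ lay below the other ConA libraries in both genes. Of 8 cycling genes, 2 or more were found at 1000 UMIs in 0 of 111, 12 of 211, 15 of 180 and 5 of 164 NK cells, where 3 counts in place of 0 of 111 would be 2.7% and the exact 95% interval reaches 3.27%. The shares in the ConA libraries were 5.69%, 8.33% and 3.05%, with overlapping exact 95% intervals of 2.97 to 9.72%, 4.74 to 13.4% and 0.997 to 6.97%. Without thinning the shares were 15.5%, 11.5% and 4.71%, so the order of ConA+Veh and ConA+TCDD turned with depth, while ConA+FICZ was the lowest of the 3 in both versions. Without NK cells above 2 times the median UMIs, the log2 ratio of *Mki67* in ConA+Veh over Naïve was 0.24.

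*Pclaf*, a replication factor, went from 1 UMI in Naïve to 133 in ConA+Veh, a log2 ratio of 5.55 (95% counting interval 3.04 to 10.86). *Stmn1*, which regulates microtubules, was at 24.9 CPM in Naïve, 259.6 in ConA+Veh, 306 in ConA+TCDD and 123 in ConA+FICZ. The G2/M list held 5 genes of 21 with 100 UMIs against Naïve, all of them higher by 2-fold in ConA+Veh, beside 8.32% of all genes, at a median of 2.58 beside 0.14. The floor counts both libraries together, and members such as *Stmn1* met it mostly through ConA+Veh. That number and median were thus partly set by the floor. Summed over all 21 genes, without the floor, the level was 721 CPM in Naïve and 2811 CPM in ConA+Veh. Without NK cells above 2 times the median UMIs, 3 of the 5 were past 2-fold, at a median of 1.20. The others were *Mki67*, at a log2 ratio of 0.24, and *Hmgb2*, a chromatin protein, at 0.25 in place of 1.10. Its median was 0.20 in ConA+TCDD and -0.66 in ConA+FICZ, where *Stmn1* was lower by 2-fold, beside 0.700% of all genes, though not in NK cells with 3 or more rule genes, at -0.92. The G1/S list, of DNA replication, held 4 genes of 18 with 100 UMIs against Naïve, all above it and 1 by 2-fold, beside 8.32% of all genes, at a median of 0.48 beside 0.14. That gene was *Dut*, which keeps uracil out of DNA, at a log2 ratio of 3.10 that was 0.66 without NK cells above 2 times the median UMIs. Growth genes were also lowest in Naïve and, among the ConA libraries, in ConA+FICZ for both examples: *Npm1*, a nucleolar chaperone, was at 508 CPM in Naïve, 1139.7 in ConA+Veh, 1217 in ConA+TCDD and 652 in ConA+FICZ, and *Ran*, of nuclear transport, at 209.6 CPM in Naïve, 744 in ConA+Veh, 691 in ConA+TCDD and 503 in ConA+FICZ. 17 of 24 growth genes reached 100 UMIs against Naïve, all above it and 7 by 2-fold or more (4 to 7 over the other choices), beside 8.32% of all genes, at a median of 0.94. In ConA+FICZ the median was -0.32, with 18 of 19 below ConA+Veh and none past 2-fold. With cells weighted equally 3 were lower by 2-fold, where 33 genes in all were lower.

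Folding genes of the ER were higher in ConA+Veh than in Naïve. The 20 genes were listed after the ratios had been seen. 14 reached 100 UMIs in ConA+Veh and Naïve, all above Naïve and 10 by 2-fold or more, beside 8.32% of all genes, at a median of 1.52. Summed over all 20 genes, without the floor, the level was 2839 CPM in Naïve and 7000 CPM in ConA+Veh. *Creld2*, which assists disulfide folding, was at 24.9 CPM in Naïve, 181 in ConA+Veh, 111 in ConA+TCDD and 118 in ConA+FICZ, and *Manf*, secreted under ER stress, at 95.9 CPM in Naïve, 471 in ConA+Veh, 260.4 in ConA+TCDD and 311 in ConA+FICZ. *Sdf2l1*, of the ER chaperone complex, was at 53.3 CPM in Naïve, 296 in ConA+Veh, 212 in ConA+TCDD and 199.97 in ConA+FICZ. *Hspa5*, the main ER chaperone BiP, was at 551 CPM in Naïve, 1192 in ConA+Veh, 889 in ConA+TCDD and 730.3 in ConA+FICZ, and *Hsp90b1*, the chaperone GRP94, at 479.7 CPM in Naïve, 1291 in ConA+Veh, 868 in ConA+TCDD and 762 in ConA+FICZ. ConA+Veh was the highest library in each of these genes. *Hspa5* was past 2-fold against Naïve, but not without NK cells above 2 times the median UMIs, at a log2 ratio of 0.91. Against ConA+Veh the medians were -0.48 in ConA+TCDD, with 14 of 15 genes below 0, and -0.57 in ConA+FICZ, with 15 of 15 below 0. None passed 2-fold with either ligand, although 2 did in ConA+FICZ with cells weighted equally, where 33 genes in all were lower. In Cd3 cells the ConA+TCDD log2 ratios were -0.12 for *Hspa5*, -0.08 for *Manf* and -0.13 for *Creld2*, and the difference was not tested.

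The ER stress response element, which the factors NF-Y and ATF6 bind, is spelled CCAAT, then any 9 bases, then CCACG. It was searched on both strands of RefSeq promoters (build GRCm38.p6, 250 bases before to 50 after a gene's start). 39 of 32851 promoters (0.119%) held it, and so did 8 of the 18 listed genes with a promoter in that table. Those were *Calr*, *Canx*, *Creld2*, *Dnajc3*, *Hsp90b1*, *Hspa5*, *Pdia6* and *Syvn1*. Stretches upstream of 3 genes that were higher by 2-fold after ConA are shown 5′ to 3′ along the gene, with the match in capitals. In *Creld2* the match lies on the opposite strand and reads as CGTGG, 9 bases and ATTGG.
Creld2, chr15:88819500-88819558, plus strand: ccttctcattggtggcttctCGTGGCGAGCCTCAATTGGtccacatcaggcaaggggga
Pdia6, chr12:17266471-17266529, plus strand: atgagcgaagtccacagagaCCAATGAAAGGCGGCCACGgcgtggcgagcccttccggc
Canx, chr11:50325780-50325838, minus strand: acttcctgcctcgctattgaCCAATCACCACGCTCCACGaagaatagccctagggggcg
The CPM of these genes were 24.9, 181, 111 and 118 for *Creld2*, 81.7, 428, 286 and 323 for *Pdia6* and 88.8, 306, 212 and 189.5 for *Canx*. A match describes the letters and not a bound site.

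**Figure D4:**
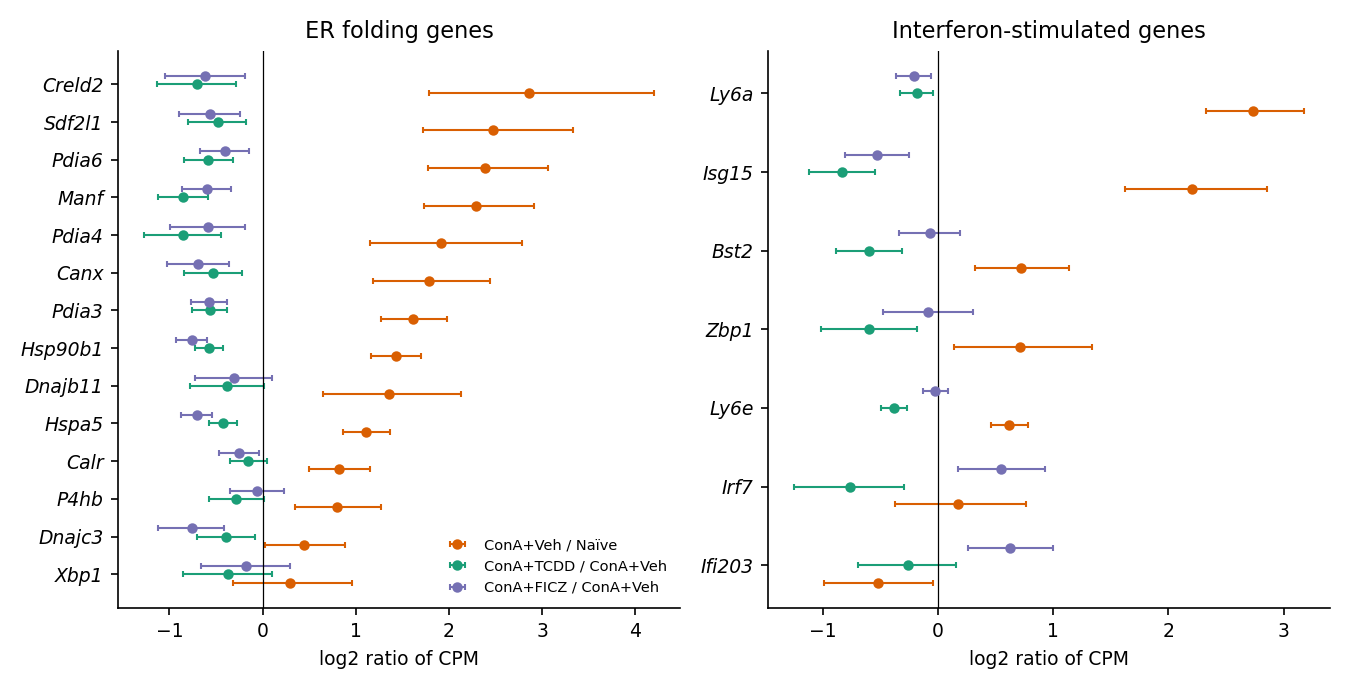
The log2 ratio of CPM with 95% counting intervals for ER folding genes (left) and interferon-stimulated genes (right) with at least 100 UMIs in each comparison. The ConA+Veh over Naïve points of the 14 ER genes shown lie to the right of 0 and their ligand points to the left, short of 2-fold.

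*Gclm*, the helper subunit of the enzyme that makes glutathione (chr3:122245557-122270732, plus strand), stood at 39.1 CPM in Naïve, 553 in ConA+Veh, 349 in ConA+TCDD and 217 in ConA+FICZ. The log2 ratio of ConA+Veh over Naïve was 3.82 (95% counting interval 2.97 to 4.84), from 11 and 443 UMIs. It was -0.67 (95% counting interval -0.90 to -0.43) in ConA+TCDD and -1.35 (95% counting interval -1.65 to -1.06) in ConA+FICZ, each against ConA+Veh. A *Gclm* UMI was found in 5.41%, 37%, 23.3% and 17.7% of NK cells at 1000 UMIs, in 8.85%, 47.1%, 37.1% and 32% of Cd3 cells and in 5.12%, 38.3%, 28.1% and 22.5% of cells with B cell genes, so the same order of the libraries was present in all 3 cell groups. *Glrx*, which reduces glutathione-bound proteins, was at 21.3 CPM in Naïve, 131 in ConA+Veh, 99 in ConA+TCDD and 120.0 in ConA+FICZ, and *Prdx1*, which removes peroxides, at 167 CPM in Naïve, 481 in ConA+Veh, 378 in ConA+TCDD and 402 in ConA+FICZ. Of 19 glutathione and redox genes, also listed after the ratios had been seen, 10 reached 100 UMIs against Naïve, 4 were higher and 1 lower by 2-fold, beside 8.32% and 6.09% of all genes, at a median of 0.55 beside 0.14.

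Of 19 interferon-stimulated genes, 7 reached 100 UMIs against Naïve, 6 of them above it in ConA+Veh and 2 by 2-fold (2 to 4 over the other choices), beside 8.32% of all genes, at a median of 0.71 beside 0.14. *Ly6a*, a surface protein induced by interferons, stood at 178 CPM in Naïve, 1186 in ConA+Veh, 1046 in ConA+TCDD and 1026 in ConA+FICZ, with a log2 ratio of 2.74 (95% counting interval 2.33 to 3.18) for ConA+Veh over Naïve. *Isg15*, a ubiquitin-like protein that interferons induce (chr4:156199424-156200818, minus strand), stood at 88.8 CPM in Naïve, 411 in ConA+Veh, 231 in ConA+TCDD and 285 in ConA+FICZ. *Irf7*, which amplifies interferon production, was at 128 CPM in Naïve, 145 in ConA+Veh, 85.3 in ConA+TCDD and 212 in ConA+FICZ, highest in ConA+FICZ. *Bst2*, which tethers viruses to the cell surface, was at 224 CPM in Naïve, 368 in ConA+Veh, 244 in ConA+TCDD and 351 in ConA+FICZ. All 7 list genes with 100 UMIs lay below 0 for ConA+TCDD over ConA+Veh, at a median of -0.59 beside -0.06 for all genes, and none passed 2-fold. For ConA+FICZ 3 of 8 were above and 5 below 0, at a median of -0.04. In Cd3 cells the log2 ratios of ConA+TCDD over ConA+Veh were -0.45 for *Isg15* and -0.79 for *Irf7*, so both genes were lower there as in NK cells. How far the ratios of the cell groups differ was not tested.

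The interferon-stimulated response element was searched as GAAA, any 2 bases and GAAA, on both strands. It was found in 3.44% of promoters and in 7 of the 11 listed interferon-stimulated genes with a promoter in the table. *Isg15* is shown as the listed gene with the most matches, 3, which overlap and run together in capitals.
Isg15, chr4:156200855-156200916, minus strand: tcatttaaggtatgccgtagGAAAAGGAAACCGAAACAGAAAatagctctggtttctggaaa
The *Isg15* CPM were 88.8, 411, 231 and 285.

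The AhR itself was sparse. *Ahr* stood at 42.6 CPM in Naïve, 52.4 in ConA+Veh, 21.3 in ConA+TCDD and 38.3 in ConA+FICZ, from 12, 42, 14 and 22 UMIs, and *Tiparp*, a target gene that restrains the AhR, had 1, 26, 22 and 13 UMIs. The target genes *Cyp1a1*, *Cyp1b1*, *Ahrr* and *Nqo1* were at 0 UMIs in all 4 libraries, which allows up to 3 UMIs per library. An *Ahr* UMI was found in 4.5%, 7.58%, 1.11% and 2.44% of NK cells at 1000 UMIs and in 1.48%, 3.18%, 4.79% and 1.72% of cells with B cell genes. *Hsp90ab1*, a chaperone that holds the unbound AhR in the cytosol among many other clients, was at 1723 CPM in Naïve, 3781 in ConA+Veh, 3844 in ConA+TCDD and 2867 in ConA+FICZ. The AhR core motif GCGTG was found on either strand in 32.4% of all promoters. It was also searched in 8 genes above ConA+Veh in ConA+TCDD, chosen after their values were seen. These were *Cblb*, *Ccl3*, *Ccl4*, *Ctla2a*, *Gimap5*, *Hist1h1c*, *Ifng* and *Plscr1*. They are not the 8 genes past 2-fold, since *Ccl4*, *Gimap5* and *Ifng* fell short of it. Of the 6 with a promoter in the table, 1 held the motif. So did 13 of 18 ER folding genes and 4 of 11 interferon-stimulated genes with a promoter in the table. Nothing about the factor is drawn from these counts.

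*Ctla2a*, an inhibitor of cathepsin L (chr13:60934155-60936625, minus strand), was high in ConA+TCDD. It stood at 380.2 CPM in Naïve, 322 in ConA+Veh, 894 in ConA+TCDD and 504 in ConA+FICZ. ConA+TCDD over ConA+Veh gave a log2 ratio of 1.47 (95% counting interval 1.26 to 1.69), and that of ConA+FICZ was 0.65 (95% counting interval 0.40 to 0.89). *Gimap5*, a GTPase that lymphocytes need to survive, was at 394 CPM in Naïve, 326 in ConA+Veh, 650.1 in ConA+TCDD and 501 in ConA+FICZ, and *Rbm3*, an RNA-binding protein induced by cold, at 437 CPM in Naïve, 371 in ConA+Veh, 632 in ConA+TCDD and 616 in ConA+FICZ. Both ligand libraries were above ConA+Veh for each of the 3 genes. The 8 *Gimap* genes, listed after the ratios had been seen, all reached 100 UMIs. Their median was -0.21 for ConA+Veh over Naïve, beside 0.14 for all genes, with 1 lower by 2-fold, beside 6.09%, -0.04 for ConA+TCDD and 0.23 for ConA+FICZ over ConA+Veh, with none past 2-fold and *Gimap5* just short of it in ConA+TCDD. *Plscr1*, a membrane lipid scramblase that interferons also induce, was at 56.9 CPM in Naïve, 76.1 in ConA+Veh, 163 in ConA+TCDD and 143 in ConA+FICZ. Its log2 ratio of ConA+TCDD over ConA+Veh was 1.10, and 0.87 with cells weighted equally. *Cblb*, a ubiquitin ligase that restrains NK and T cell activation, was at 128 CPM in Naïve, 52.4 in ConA+Veh, 109.6 in ConA+TCDD and 78.2 in ConA+FICZ. Its log2 ratio of 1.06 for ConA+TCDD over ConA+Veh fell short of 2-fold under several choices, at 0.78 in NK cells with 3 or more rule genes, 0.83 with cells weighted equally and 0.91 without NK cells above 2 times the median UMIs.

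This excess was uneven between cells. *Cd52* encodes a small surface protein of lymphocytes, and was used as a split after its values were seen. At 1000 UMIs per cell, 12 of 111, 26 of 211, 46 of 180 and 14 of 164 NK cells lacked a *Cd52* UMI, or 10.8%, 12.3%, 25.6% and 8.54%. The exact 95% intervals were 8.21 to 17.5% with vehicle and, for ConA+TCDD, 19.4 to 32.6%, which cover counting error over the cells of 1 library each and do not compare conditions. In Cd3 cells the shares were 23.3%, 19.8%, 48.9% and 26.8%, so the high share in ConA+TCDD was present in both cell groups.

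In ConA+TCDD, cells without *Cd52* held a mean of 2.83 *Ctla2a* UMIs and those with it 0.433, out of 1000. For *Rbm3* the means were 1.35 and 0.306, for *Ifng* 1.54 and 0.425, and for *Gimap5* 1.5 and 0.582. In ConA+Veh the corresponding means were 0.192 and 0.389 for *Ctla2a*, 0.115 and 0.292 for *Rbm3*, 0.5 and 0.238 for *Ifng* and 0.5 and 0.362 for *Gimap5*. *Ifng* was thus also higher without *Cd52* there. The *Gimap5* difference lay within counting error, at a log2 ratio of 0.47 (95% counting interval -0.52 to 1.34). In Cd3 cells of ConA+TCDD the same genes were higher without *Cd52* too, so the pattern was not particular to NK cells. The means there were 0.268 and 0.165 for *Ctla2a* and 1.63 and 0.557 for *Rbm3*. They were 0.119 and 0.0586 for *Ifng* and 0.582 and 0.297 for *Gimap5*. Of 476 genes with 50 UMIs in ConA+TCDD NK cells, 15 were higher and 49 lower by 2-fold in cells without *Cd52*, or 3.15% and 10.3%. In the other libraries 4.47%, 1.53% and 1.55% were higher and 7.56%, 8.5% and 11.1% lower, in the order Naïve, vehicle, FICZ. In ConA+TCDD *Tspan13*, a membrane tetraspanin, *Ctla2a*, *Rbm3*, *Gna13*, a G protein subunit, and *Ifng* led the higher genes. *Tnfrsf9*, the costimulatory receptor 4-1BB, followed. *Klrd1*, *Cd7* and *Ly6a* were among the lower ones, as was *Ncr1*, a rule gene given as a description only. *Ly6c2* was lower too, at 0 UMIs in 46 cells and 78 UMIs in 134. In ConA+FICZ *Ly6c2* was also at 0 in the cells without *Cd52*.

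*Actb*, cytoskeletal actin, was lower too, at means of 4.46 without and 10.3 with *Cd52*, and *Gzma* at 10.9 and 24.6. Both were lower without *Cd52* in the other libraries too, at 8.42 and 9.75, 7.58 and 11.3 and 7.93 and 11.1 for *Actb* in Naïve, vehicle and FICZ, and 7.58 and 8.55, 16.5 and 21.8 and 13.7 and 19.9 for *Gzma*. In Naïve both differences lay within counting error. In Cd3 cells of ConA+TCDD the means were 4.16 and 7.07 for *Actb* and 0.261 and 0.996 for *Gzma*. *Trac* and *Cd3g* had 0 UMIs in the 46 ConA+TCDD NK cells without *Cd52* and 4 and 10 UMIs in the 134 with it, within counting error. *Cd3g* was also lower without *Cd52* in Cd3 cells of ConA+TCDD, at means of 0.146 and 0.498. *Tyrobp* was lower in the 46 cells, at 1.54 against 3.01. Whether the 46 cells include T cells without a read *Cd3d* or *Cd3e* UMI was not tested. The median depth of the 46 cells was 2660.5 UMIs, against 2585 with *Cd52*, and their median mitochondrial share 2.36% against 2.22%. In cells with *Cd52*, the log2 ratio of ConA+TCDD over ConA+Veh was 0.15 (95% counting interval -0.37 to 0.67) for *Ctla2a*, 0.07 (95% counting interval -0.55 to 0.68) for *Rbm3* and 0.68 (95% counting interval 0.19 to 1.18) for *Gimap5*. It was 2.14 (95% counting interval 1.75 to 2.55) for *Ccl3* and 0.84 (95% counting interval 0.25 to 1.44) for *Ifng*. That of *Cblb* was -0.12 (95% counting interval -1.44 to 1.13), from 10 and 15 UMIs. *Ccl3* was thus as far above ConA+Veh in cells with *Cd52* as in all NK cells, whereas the *Ctla2a* and *Rbm3* values lay within counting error of ConA+Veh.

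**Figure D5:**
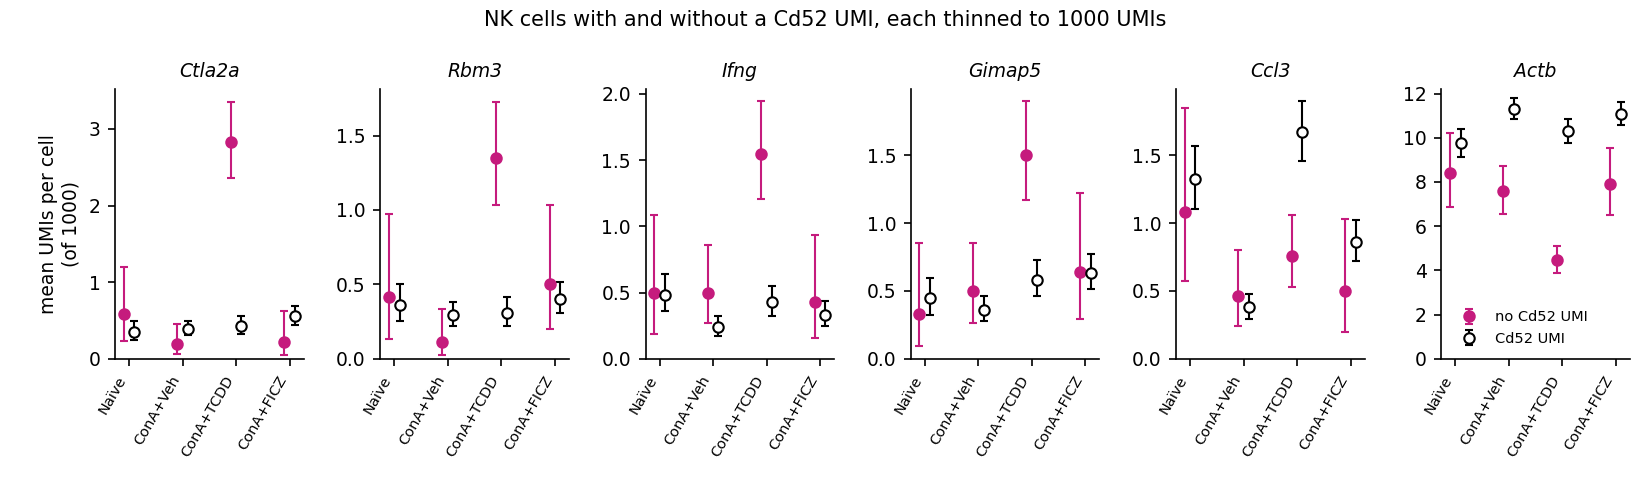
Mean UMIs per NK cell, out of 1000, of 6 genes in cells without (filled) and with (open) a *Cd52* UMI in each library, with exact 95% Poisson intervals. In ConA+TCDD the filled points of *Ctla2a*, *Rbm3*, *Ifng* and *Gimap5* stand above the open ones, and those of *Ccl3* and *Actb* below.

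Actin genes differed little between libraries, none past 2-fold with a ligand. *Tmsb4x*, thymosin beta 4, which binds actin monomers (chrX:167207093-167209315, minus strand), stood at 10209 CPM in Naïve, 12002 in ConA+Veh, 9947 in ConA+TCDD and 11214 in ConA+FICZ. Its log2 ratios were 0.23 (95% counting interval 0.17 to 0.29) for ConA+Veh over Naïve, -0.27 (95% counting interval -0.32 to -0.23) for ConA+TCDD and -0.10 (95% counting interval -0.14 to -0.05) for ConA+FICZ over ConA+Veh. For its NK cell cluster, a different selection of cells, the paper reports the opposite directions of *Tmsb4x* with ConA and with TCDD. The reason was not tested. *Lgals1*, galectin 1, was at 1503 CPM in Naïve, 2603 in ConA+Veh, 1908 in ConA+TCDD and 1942 in ConA+FICZ, and *Vim*, vimentin, at 544 CPM in Naïve, 1106 in ConA+Veh, 1063 in ConA+TCDD and 1052 in ConA+FICZ. Of 24 actin and cytoskeleton genes, 23 reached 100 UMIs, 20 were above Naïve in ConA+Veh and 1, *Vim*, by 2-fold (0 to 2 over the other choices), beside 8.32% of all genes, and 18 were below ConA+Veh in ConA+TCDD, at a median of -0.19. Of the glycolysis genes with 100 UMIs, 9 of 10 lay above Naïve in ConA+Veh. *Ldha*, lactate dehydrogenase, was at 540.1 CPM in Naïve, 1128 in ConA+Veh, 1148 in ConA+TCDD and 882 in ConA+FICZ, and *Pgk1*, phosphoglycerate kinase, at 206 CPM in Naïve, 427 in ConA+Veh, 426 in ConA+TCDD and 266 in ConA+FICZ. 4 of the 10 were higher by 2-fold, beside 8.32% of all genes, at a median of 0.84 beside 0.14. The number was 2 to 6 over the other choices. *Pgk1* and *Aldoa*, an aldolase, stand at the line, with log2 ratios of 1.05 and 1.01 that were 0.94 and 0.97 in NK cells with 3 or more rule genes. The median of the 27 oxidative phosphorylation genes, all with 100 UMIs, was 0.36, with 2 past 2-fold (1 to 4 over the other choices), beside 8.32% of all genes, so the number is near that of all genes.

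MHC class I molecules inhibit NK cells through Ly49 receptors. Of 16 antigen presentation genes with 100 UMIs, 10 lay below and 6 above Naïve in ConA+Veh, at a median of -0.31 beside 0.14 for all genes. 1 of the 16 was lower by 2-fold, near the 6.09% of all genes: the class I gene *H2-Q6*, at 863 CPM in Naïve, 366 in ConA+Veh, 382 in ConA+TCDD and 384 in ConA+FICZ. *H2* class I genes are near-identical copies, so their single counts are uncertain. *H2-D1* was at 4012 CPM in Naïve, 2550.2 in ConA+Veh, 2278 in ConA+TCDD and 3085 in ConA+FICZ, *H2-K1* at 3724 CPM in Naïve, 2746 in ConA+Veh, 2444 in ConA+TCDD and 2904 in ConA+FICZ and *H2-T23*, which presents to NKG2A, at 558 CPM in Naïve, 412 in ConA+Veh, 268 in ConA+TCDD and 511 in ConA+FICZ. ConA+TCDD was the lowest library for all 3, and 15 of the 16 antigen presentation genes with 100 UMIs lay below ConA+Veh there, at a median of -0.29, none by 2-fold. In ConA+FICZ 11 of 16 lay above, at a median of 0.08. *Cd7* was at 1102 CPM in Naïve, 374 in ConA+Veh, 218 in ConA+TCDD and 228 in ConA+FICZ, lower in each ConA library than in Naïve. Without the cells with 3 or more ILC1 genes, which held 199 of its 310 Naïve UMIs, it was at 524 CPM in Naïve and 307 CPM in ConA+Veh, short of 2-fold.

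Further lists are given by their medians. Against Naïve, the median in ConA+Veh was 1.09 for heat shock genes, -0.49 for signalling adaptors, -0.10 for transcription factors, -0.14 for STAT and SOCS genes, -0.24 for stress and cold genes and 0.08 for leukocyte surface genes, beside 0.14 for all genes. In the heat shock list, which holds *Hspa5* too, 5 of 8 genes were higher by 2-fold (2 to 5 over the other choices), beside 8.32% of all genes. Against ConA+Veh its medians were -0.20 in ConA+TCDD and -0.42 in ConA+FICZ, with none past 2-fold. The adaptors lay below ConA+Veh in 10 of 11 genes in ConA+TCDD, at a median of -0.23, and the STAT and SOCS genes above it in 9 of 10 in ConA+FICZ, at 0.28, with none past 2-fold in either. The activating and inhibitory receptor lists had medians of -0.10 and -0.26 in ConA+TCDD and 0.02 and -0.04 in ConA+FICZ. Those of the glycolysis, oxidative phosphorylation and redox lists were 0.01, -0.07 and -0.16 in ConA+TCDD and -0.25, -0.01 and -0.10 in ConA+FICZ.

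Of the 19 genes past 2-fold in ConA+FICZ, several rest on few cells. *Ifitm3*, a membrane protein that blocks viral entry, was at 67.5 CPM in Naïve, 88.6 in ConA+Veh, 109.6 in ConA+TCDD and 323 in ConA+FICZ, with 97 of 186 ConA+FICZ UMIs in 1 cell, and *Ifitm1* had 76 UMIs there, 60 in 1 cell. The log2 ratio of *Ifitm1*, 1.52, turned to -0.34 with cells weighted equally. It was -2.46 without NK cells above 2 times the median UMIs. *Coro2a*, a coronin of the actin cytoskeleton, was at 117 CPM in Naïve, 57.4 in ConA+Veh, 89.8 in ConA+TCDD and 122 in ConA+FICZ, and its log2 ratio of 1.08 was 0.91 without NK cells above 2 times the median UMIs. *Ccl3*, short of 2-fold with cells weighted equally, *Fos* and *Zfp36* complete the 6 higher genes. The 13 lower ones included *Gclm*, *Ltb*, *Stmn1*, *Ctla4*, *Gzmc* and *Cd74*, given above, of which *Ctla4* was at -0.98 in cells without UMIs of *Cd3g*, *Cd4*, *Cd8a*, *Cd8b1* and *Trac*, and *Skil*, a repressor of TGF-beta signalling, at 49.7 CPM in Naïve, 98.6 in ConA+Veh, 65.5 in ConA+TCDD and 40 in ConA+FICZ. *AA467197* was at 39.1 CPM in Naïve, 112 in ConA+Veh, 80.7 in ConA+TCDD and 41.7 in ConA+FICZ, with a log2 ratio of -0.61 without NK cells above 2 times the median UMIs. *S100a9* was lower in ConA+FICZ through the single ConA+Veh cell. *Pim2*, a survival kinase, was at 277 CPM in Naïve, 145 in ConA+Veh, 175 in ConA+TCDD and 247 in ConA+FICZ, a log2 ratio of 0.77 (95% counting interval 0.41 to 1.14), short of 2-fold.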

How the data were processed

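Liver mononuclear cells were isolated by enzymatic dissociation and a Percoll gradient and processed with the 10x Genomics 5′ kit, with 1 library per group. The deposited counts are raw UMI counts per gene and cell, which the authors made with Cell Ranger 3.0.2 on the mm10 genome (GRCm38), with no normalization. The barcodes in the files equal the cell numbers stated in the study for Naïve, ConA+Veh and ConA+TCDD. The smallest NK cells held 537, 500, 533 and 502 UMIs. No doublet caller was run; leaving out NK cells above 2 times their library's median UMIs was tried instead.

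The UMIs of each gene were added up across the NK cells of a library and scaled to the total UMIs of those cells. Intervals at 95% were exact Poisson for sums, exact Clopper-Pearson for shares and exact binomial for ratios, covering counting error only. 100 UMIs in both libraries together were required for a ratio over all NK cells. A gene low in 1 library could meet this floor through the other, so counts of genes past 2-fold depend partly on the floor. Ratios in other choices of cells, and in cells with *Cd52*, keep the genes that met this floor and can rest on fewer UMIs. A count of 0 was taken to allow 3 counts. The scale of detection shares is 1000 UMIs per cell, drawn at random, with shallower cells left out (27, 21, 20 and 27 NK cells). Positions are from GENCODE M21. Computation used scipy 1.17.1, numpy 2.4.6 and pandas 2.3.3 under Python 3.11.15, and plots used matplotlib 3.10.9. The calculations were tested on simulated data.

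The NK rule, the gene lists and the comparisons were chosen with earlier results of these data known, and lists of ER folding, redox and *Gimap* genes were added after the ratios were seen. The named genes are the rule genes, the 2 most abundant and 2 most different genes of each list and comparison, the 8 largest rises and falls of each comparison (antigen receptor segments apart), the most abundant marker of each other cell type, and *Gzma*, *Tmsb4x*, *Ahr*, *Ifng*, *Gzmb* and *Mki67*. Other genes, among them *Actb*, *Cxcr6*, *Tiparp*, the AhR targets at 0, *Tspan13*, *Gna13*, *Tnfrsf9* and the genes with a promoter match, were chosen after their values were seen. Other rules for the NK cells, UMI floors, scalings and thinning were tried. Some results are not reported here.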

Additional observations from a re-analysis of the deposited data

How the results depend on the processing

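No paired analysis was possible because each group has 1 library and no result comes from a test. For the same reason no replicate could be left out. With the rule applied after thinning to 1000 UMIs, the log2 ratio of the NK share was 0.71 for ConA+Veh over Naïve (0.34 without thinning) and -0.083 for ConA+TCDD over ConA+Veh (0.35 without thinning). With a floor of 50 UMIs, 242 genes were higher and 270 lower by 2-fold in ConA+Veh over Naïve, 16 and 38 in ConA+TCDD over ConA+Veh, and 29 and 48 in ConA+FICZ over ConA+Veh. With a floor of 200 UMIs the numbers were 67 and 41, 4 and 1, and 3 and 2. With cells weighted equally (UMIs per 10000 averaged over cells), 13 genes were lower in ConA+TCDD, and 12 were higher and 33 lower in ConA+FICZ. Leaving out NK cells above 2 times the median UMIs gave 60 genes lower in ConA+Veh. Leaving out the cell with most UMIs of a gene, chosen after seeing the data, gave 7 lower in ConA+TCDD. Cells without *Cd3g*, *Cd4*, *Cd8a*, *Cd8b1* and *Trac* gave 5 genes lower in ConA+FICZ, and cells with 3 or more rule genes gave 6. The cause of these shifts was not tested.

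Genes held by few cells or few UMIs changed direction. The log2 ratio of *Cd74* in ConA+Veh over Naïve was 0.17 with the per-cell mean, 0.81 without cells of high UMI count, 1.22 without cells carrying another type, 0.62 without cells with ILC1 genes and 0.91 without the top cell. That of *S100a9* was -0.29 without T cell genes, -0.34 without cells of high UMI count, -0.72 without cells carrying another type, -0.21 without cells with ILC1 genes and -0.34 without the top cell, and in ConA+FICZ over ConA+Veh it was 0.29 without cells of high UMI count. *Ifitm1* in ConA+FICZ over ConA+Veh was -0.34 with the per-cell mean, -2.46 without cells of high UMI count and -1.28 in cells with *Cd52*. *Cblb* in ConA+TCDD over ConA+Veh was -0.12 in cells with *Cd52*, from 10 and 15 UMIs. The exclusions of cells carrying another type, with ILC1 genes or without *Cd52* were chosen after seeing the data, as was the count of list genes past 2-fold under each choice. Of 5351 alternative gene ratios 679 moved by more than their counting interval and 15 reversed, of 170 list medians 24 moved, and of 54 shares of cells with a UMI 4 moved. Without a depth correction (mean UMI per cell), the median log2 ratio of all genes shifted to 0.90, -0.13 and -0.23 in the 3 comparisons.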
